A study of Caenorhabditis elegans with 24 samples.

Results

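P granules are condensates of RNA and protein that sit on the nuclear envelope of germ cells in Caenorhabditis elegans and are inherited by the germline of the embryo. They hold messenger RNA that has just left the nucleus and the machinery of small RNA silencing, and they are needed for fertility. The 10 transcripts described here encode components of these granules. They are the DEAD-box helicases related to Vasa glh-1, glh-2, glh-3 and glh-4, the scaffold genes pgl-1, pgl-2 and pgl-3, the assembly gene deps-1, and meg-1 and meg-2, which encode disordered proteins loaded into the egg. They were chosen by WormBase symbol, and all 10 were found among the 21689 genes of the deposited table.

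The animals were sampled whole on day 1 of adulthood, grown at 20 °C with the Escherichia coli strain OP-50-1 as food, and their RNA was sequenced. There were 6 genotypes with 4 libraries each: the mutant daf-16;daf-2;htz-1 (called the triple mutant), daf-16;daf-2 (the daf-16 double mutant), daf-2;htz-1 (the htz-1 double mutant), the single mutants daf-2 and htz-1, and wild-type N2 (wt). The alleles were mu86 for daf-16, e1370 for daf-2 and bon101 for htz-1. H2A.Z, a variant of histone H2A, is the product of htz-1, while daf-2 codes for the insulin/IGF-1 receptor and daf-16 for the FOXO transcription factor below it. The sources used here give neither the lesion of bon101 nor the number of animals per library. The values are regularized log2 (rlog) values, a log2 scale on which differences of genes with few reads are shrunk, and their read depth is unknown.

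The transcript of htz-1 itself was between 11.20 and 11.70 in the 12 libraries with bon101 and between 10.62 and 11.30 in the 12 without it, so its level does not check the labels. That of daf-16 was between 8.47 and 9.99 in the 8 libraries with mu86 and between 9.64 and 11.26 in the 16 without it, and that of daf-2 overlapped between carriers and non-carriers of e1370. Markers of other cell types were also measured. The summed level of 13 sperm markers was 9.85 to 10.73 in the triple mutant, against 13.20 to 13.56 in the daf-16 double mutant, 11.03 to 11.36 in the htz-1 double mutant, against 11.50 to 12.88 in daf-2, and 10.49 to 10.84 in htz-1, against 12.44 to 13.45 in wt (log2 of the sum). Of 12 early embryo markers 4 passed the filter on low values, and the summed level of the 12 was 12.08 to 12.39 in the triple mutant, against 10.60 to 11.42 in the daf-16 double mutant, 11.92 to 11.95 in the htz-1 double mutant, against 11.30 to 12.11 in daf-2, and 12.05 to 12.33 in htz-1, against 10.90 to 12.02 in wt. The 4 tested held 4 rises and 0 falls in the triple mutant against the daf-16 double mutant (median 3.41). They held 3 and 0 in the htz-1 double mutant against daf-2 (median 1.42), and 4 and 0 in htz-1 against wt (median 3.17). Of all genes, 24.1%, 20.4% and 26.4% rose in these comparisons. The median of 22 mitotic and meiotic markers was 10.15 to 10.62 in the triple mutant, against 10.53 to 10.66 in the daf-16 double mutant, 10.32 to 10.63 in the htz-1 double mutant, against 10.71 to 10.93 in daf-2, and 10.40 to 10.56 in htz-1, against 10.56 to 10.71 in wt. In whole animals, fewer germ cells and less RNA per germ cell cannot be told apart. In the triple mutant against the daf-16 double mutant, the htz-1 double mutant against daf-2, and htz-1 against wt, 6, 5 and 7 of 8 intestine markers fell, where 24.3%, 20.1% and 24.5% of all genes tested fell. Of the same 8 markers 0, 1 and 0 rose. Of 10 neuron markers 3, 6 and 3 rose, where 24.1%, 20.4% and 26.4% of all genes rose. Markers of muscle (0 up and 2 down, 1 and 0, and 1 and 1, of 8) and hypodermis (2 and 4, 0 and 5, and 2 and 5, of 8) moved both ways. The part of these markers in the results below was not tested, except that the members were also set against the germline markers of the same library.

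Positions are those of the Ensembl annotation of WBcel235, which is the build named for the deposited data. The helicase genes all lie on chromosome I, glh-1 (WBGene00001598) at 6854478 to 6857536, glh-2 (WBGene00001599) at 6513928 to 6517507, glh-3 (WBGene00001600) at 5792321 to 5795114 and glh-4 (WBGene00001601) at 3727027 to 3731179, as does deps-1 (WBGene00022034) at 506473 to 509056. The PGL genes are spread over the genome, pgl-1 (WBGene00003992) on chromosome IV at 6974441 to 6977318, pgl-2 (WBGene00003993) on III at 8670543 to 8675435 and pgl-3 (WBGene00003994) on V at 4755979 to 4758587. On X lie meg-1 (WBGene00010492) at 13927036 to 13929634 and meg-2 (WBGene00010493) at 13922643 to 13926129. All are annotated as protein coding.

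All 10 members passed the filter on low values, a mean of at least 3 over the 24 libraries. Per kilobase of annotated exon, glh-1 was the most abundant member in wt (12.67, on the rlog scale with the log2 of the length subtracted), followed by pgl-1 (11.89), deps-1 (10.90), pgl-3 (10.53), glh-2 (10.23), glh-4 (10.12), meg-1 (9.51), glh-3 (8.70), pgl-2 (7.56) and meg-2 (6.997). The neighbours deps-1 and pgl-3, pgl-3 and glh-2, and glh-2 and glh-4 differed by less than the SD of either gene among the wt libraries. This SD, like those below, is between libraries and does not show whether an order held within each library. Before the correction for length, deps-1 was above pgl-3 in every wt library (12.14 against 12.02, 11.56 against 11.27, 12.43 against 12.26 and 11.61 against 11.34). In the triple mutant the order was glh-1 (11.69), pgl-1 (11.66), deps-1 (10.83), pgl-3 (10.33), meg-1 (10.25), glh-4 (10.03), glh-2 (9.96), glh-3 (8.26), meg-2 (8.10) and pgl-2 (7.35). There the lead of glh-1 over pgl-1, each step from deps-1 down to glh-2, and the step between glh-3 and meg-2 were smaller than the larger SD of the pair, and meg-2 was no longer the lowest member. The plot of the 10 transcripts by library shows these levels without the correction for length.

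**Figure D1:**
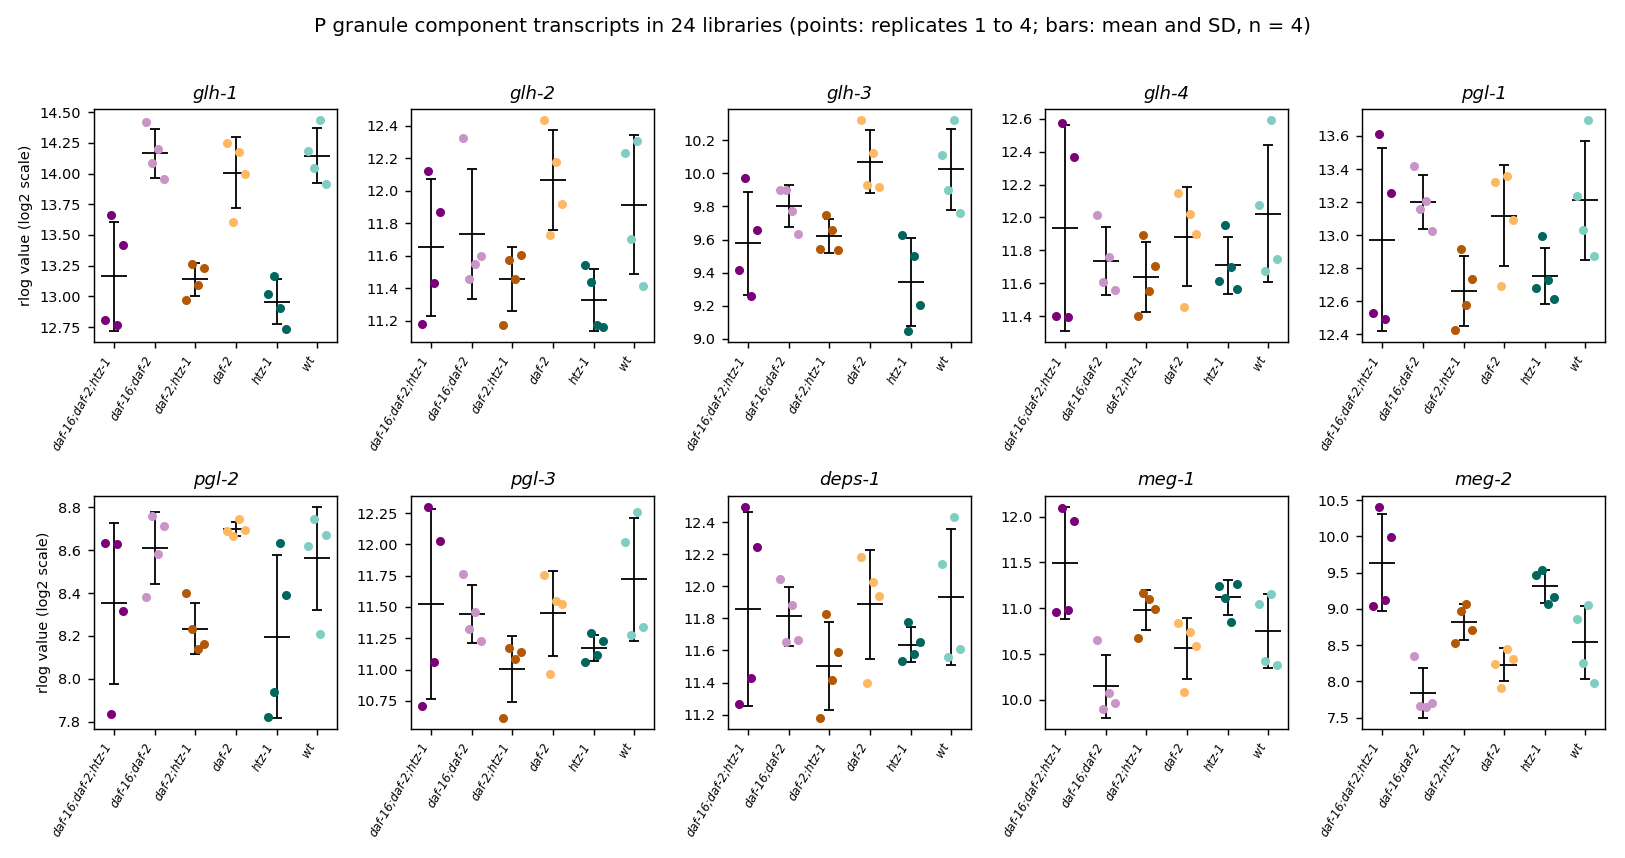
Each panel gives the rlog value (log2 scale, vertical axis, its range set per panel) of a P granule gene in the 24 libraries, by genotype. Points are single libraries and bars are the mean ± SD of 4. The 12 glh-1 points of the 3 genotypes with the htz-1 allele are lower than those of the 3 without it except for 1 overlap at the edge (13.66 in a triple mutant library against 13.61 in a daf-2 library), and the means of meg-1 (11.50) and meg-2 (9.64) are highest in the triple mutant, whose replicates 1 and 3 lie within the range of other genotypes.

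The htz-1 allele was compared with its absence in 3 backgrounds that share no library. The clearest result was glh-1, the main germline helicase of the granule, which fell in all of them. Its values were 12.81, 13.66, 12.77 and 13.42 in the triple mutant, against 14.42, 14.08, 14.20 and 13.95 in the daf-16 double mutant. They were 12.97, 13.27, 13.09 and 13.23 in the htz-1 double mutant, against 14.25, 13.61, 14.18 and 13.997 in daf-2. They were 13.02, 13.17, 12.91 and 12.73 in htz-1, against 14.18, 14.04, 14.44 and 13.91 in wt. In each background all 4 libraries with the allele lay below all 4 without it.

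The glh-1 differences were -1.0 ± 0.20 (SE, limma adjusted p = 0.000142) in the triple mutant against the daf-16 double mutant, -0.87 ± 0.20 (adjusted p = 0.000966) in the htz-1 double mutant against daf-2, and -1.19 ± 0.20 (adjusted p = 1.69e-05) in htz-1 against wt. These are levels of 0.500, 0.547 and 0.439 times those without the allele. The size of the fall did not pass the test for a difference between backgrounds (0.32 ± 0.28, adjusted p = 0.503, for the daf-2 against the wild-type background, and -0.13 ± 0.28, adjusted p = 0.761, for the daf-16 double mutant against the daf-2 background). No alternative setting and no library left out ended any of these 3 calls.

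The other helicase genes showed smaller differences. The closest relative, glh-2, had 11.18, 12.12, 11.43 and 11.87 in the triple mutant, against 12.33, 11.46, 11.55 and 11.60 in the daf-16 double mutant, where it was not called (-0.08 ± 0.23 SE, adjusted p = 0.796). It had 11.17, 11.58, 11.46 and 11.61 in the htz-1 double mutant, against 12.44, 11.73, 12.18 and 11.92 in daf-2, and it fell there (-0.61 ± 0.23, adjusted p = 0.0329). In htz-1 it had 11.54, 11.44, 11.17 and 11.16, against 12.23, 11.70, 12.31 and 11.41 in wt, and it fell as well (-0.59 ± 0.23, adjusted p = 0.0330), although these groups overlapped. Both falls rest on few libraries. The call between htz-1 and wt ended without wt 1 or 3 or without htz-1 3 or 4 (-0.53 to -0.45) and that between the htz-1 double mutant and daf-2 without daf-2 1 or 3 or without htz-1 double mutant 1 or 3 (-0.61 to -0.49). Both ended with centring on the library median (-0.53 and -0.65) and on the germline marker median (-0.41 and -0.31), and the first also with quantile normalization (-0.36).

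For glh-3, which lacks the FG repeats of the other helicases of the family, values were 9.62, 9.05, 9.50 and 9.20 in htz-1, against 10.11, 9.90, 10.32 and 9.76 in wt. All 4 htz-1 libraries were lower, by 0.68 ± 0.16 (SE), adjusted p = 0.00103, a call that held in every setting and without any library. In the htz-1 double mutant it had 9.54, 9.75, 9.66 and 9.54, against 10.32, 9.93, 10.12 and 9.91 in daf-2. This was a fall of -0.45 ± 0.16 (adjusted p = 0.0286) between groups that did not overlap, but the call ended without daf-2 1 or 3 or without htz-1 double mutant 1 or 4 (-0.43 to -0.37), with either centring (-0.49 and -0.15) and with quantile normalization (-0.37). In the triple mutant glh-3 was 9.58 ± 0.31, against 9.80 ± 0.13 in the daf-16 double mutant (SD, n = 4 each), and it was not called (-0.23, adjusted p = 0.257). The fourth helicase gene, glh-4, was called in none of the 3 comparisons (0.20, -0.24 and -0.31, adjusted p from 0.278 to 0.512). The genes glh-1 and glh-2 encode closely related proteins, and the sources used here do not say how reads that fit both were shared.

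The scaffold and assembly genes were not called with all libraries in the fit. PGL-1 and PGL-3 are the proteins that form the body of the granule and carry RGG repeats, which PGL-2 lacks. In the triple mutant against the daf-16 double mutant, the htz-1 double mutant against daf-2, and htz-1 against wt, the differences were -0.23, -0.45 and -0.46 for pgl-1, -0.26, -0.46 and -0.37 for pgl-2, 0.08, -0.45 and -0.55 for pgl-3, and 0.05, -0.38 and -0.30 for deps-1, whose product promotes the gathering of PGL-1 into granules. The lowest adjusted p of these 12 values was 0.0503, for pgl-2 in the htz-1 double mutant. There its values were 8.40, 8.23, 8.14 and 8.16, against 8.69, 8.67, 8.75 and 8.69 in daf-2, so that the groups did not overlap, and the difference was called with centring on the library median (-0.51), with quantile normalization (-0.48) and when only these 8 libraries were fitted (-0.46). Single libraries decided others of these values. In htz-1 against wt, pgl-1 was called without wt 4 (-0.57), pgl-3 without wt 2 (-0.70), and pgl-2 without wt 3 or htz-1 3 (-0.48 and -0.51). In the htz-1 double mutant against daf-2, pgl-1 was called without daf-2 2 (-0.59). The gene pgl-2 overlaps fli-1 on the same strand and a pseudogene, WBGene00002212, on the other, which fell in the 3 comparisons (-3.04, -1.65 and -3.37), while fli-1 was not called (0.28, 0.26 and 0.13). Likewise deps-1 overlaps the coding gene Y65B4BL.7 on the opposite strand. That gene fell in the triple mutant against the daf-16 double mutant (-0.72). It was not called in the htz-1 double mutant against daf-2 (0.52) or in htz-1 against wt (-0.11). The library type does not mark strand, so reads from these overlaps may have been shared.

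The MEG genes moved the other way. MEG-1 and MEG-2 act redundantly in the segregation of P granules in the early embryo and in fertility, and their genes are neighbours on chromosome X, 906 bases apart on the same strand (WBcel235). The transcript of meg-1 had 10.96, 12.09, 10.98 and 11.95 in the triple mutant, against 10.65, 9.90, 10.07 and 9.97 in the daf-16 double mutant. That of meg-2 had 9.03, 10.41, 9.12 and 9.99 in the triple mutant, against 8.36, 7.66, 7.65 and 7.70 in the daf-16 double mutant. For both genes every library of the triple mutant was the higher. The rises were 1.35 ± 0.25 for meg-1 (SE, adjusted p = 5.9e-05, 2.55 times) and 1.80 ± 0.27 for meg-2 (adjusted p = 3.91e-06, 3.47 times), and both calls held in every setting and without any library.

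In the other backgrounds only 1 of the MEG differences was called. In htz-1 the values of meg-2 were 9.47, 9.54, 9.07 and 9.16, against 8.86, 8.26, 9.05 and 7.97 in wt, without overlap, and the rise was 0.77 ± 0.27 (SE, adjusted p = 0.0184). This call ended without wt 2 or 4 or without htz-1 2 (0.58 to 0.70). In the htz-1 double mutant meg-2 had 8.53, 8.97, 9.07 and 8.71, against 8.24, 7.91, 8.45 and 8.31 in daf-2, again without overlap, and the difference of 0.59 ± 0.27 was not called (adjusted p = 0.0819), although it was when only these 8 libraries were fitted (0.59) and with centring on the germline marker median (0.89). For meg-1 the differences were 0.42 ± 0.25 in the htz-1 double mutant (adjusted p = 0.179) and 0.36 ± 0.25 in htz-1 (adjusted p = 0.224). Neither was called, but both were with quantile normalization (0.59 and 0.56) and with centring on the germline marker median (0.72 and 0.54).

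The effect of the htz-1 allele on both MEG genes was larger in the daf-16 double mutant background than in the daf-2 background, by 0.93 ± 0.35 for meg-1 (SE, adjusted p = 0.0491) and by 1.21 ± 0.38 for meg-2 (adjusted p = 0.0203). The same difference had a median of 0.44 over the 10 members. For the 4 early embryo markers tested it was 1.87 (3 called higher, 0 lower), above the value of either MEG gene. For 18 oocyte markers it was 0.87 (7 and 0), and for 10 genes of P granule assembly and clearance 0.83 (4 and 0). For 16 other P granule proteins it was 0.58 (3 and 0), and for 22 mitotic and meiotic markers 0.44 (4 and 0). For 13 sperm markers it was -1.98 (0 and 10), and for all genes tested -0.11 (26.5% called in either direction). The meg-1 value was at the edge of the threshold. It was not called with batch as a block (0.93, adjusted p = 0.0625), with no filter on low values, with no intensity trend, with centring on the germline marker median (0.76) or when only these 16 libraries were fitted. It was also lost without daf-2 1, 3 or 4, htz-1 double mutant 1, 3 or 4, daf-16 double mutant 2, 3 or 4, or triple mutant 2 or 4 (0.73 to 0.97). The meg-2 call ended without triple mutant 2 (0.95), and without all libraries of batch 2 (1.05, adjusted p = 0.0858) or of batch 4 (0.98, adjusted p = 0.155). Between the triple mutant and the htz-1 double mutant, meg-2 rose by 0.82 ± 0.27 (SE, adjusted p = 0.0222), with overlap between the groups, a call that ended without triple mutant 2 or 4 or without htz-1 double mutant 1 or 4 (0.57 to 0.78), while meg-1 was not called (0.51, adjusted p = 0.116). Without triple mutant 1 or 3 meg-1 was called there (0.69 for either), and without triple mutant 1 so was pgl-3 (0.79).

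**Figure D2:**
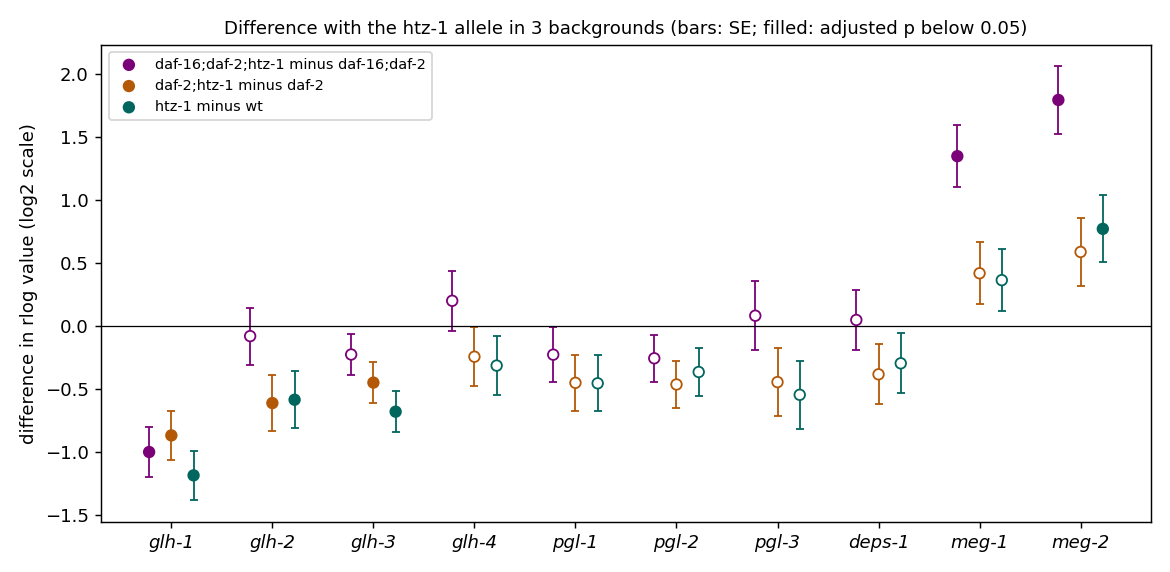
Difference in rlog value (log2 scale, vertical axis) between genotypes with and without the htz-1 allele for the 10 members, in the daf-16 double mutant, daf-2 and wild-type backgrounds. Bars are the SE of the difference and filled points had an adjusted p below 0.05. The 3 glh-1 points are filled and lie between -1.19 and -0.87, the PGL and deps-1 points are open, and the MEG points lie above 0, furthest in the daf-16 double mutant background.

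Read against the whole transcriptome, these counts of members stood near the background. Of the 10 members, 2 rose and 1 fell in the triple mutant against the daf-16 double mutant, where 24.1% of the 14482 genes tested rose and 24.3% fell. In the htz-1 double mutant against daf-2, 0 rose and 3 fell, where 20.4% of all genes rose and 20.1% fell. In htz-1 against wt, 1 rose and 3 fell, where 26.4% rose and 24.5% fell. The median member differed by -0.02, -0.45 and -0.41 in these comparisons, and the median of all genes tested by 0.03, 0.04 and 0.03. Groups did not overlap for 3, 5 and 3 members, against 40.1%, 38.8% and 44.6% of all genes.

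No member was called for the daf-2 allele or for daf-16(mu86) on top of it. In daf-2 against wt, 0 of 10 were called by limma (12.4% of all genes were), and 0 had an unadjusted p below 0.05. The differences ran from -0.31 for meg-2 to 0.15 for glh-2. In the daf-16 double mutant against daf-2, 0 of 10 were called (25.7% of all genes were) and 0 had an unadjusted p below 0.05, with differences from -0.42 for meg-1 to 0.16 for glh-1. The 4 glh-3 values of the daf-16 double mutant all lay below those of daf-2, as did the groups of 24.9% of all genes in either direction. In the htz-1 double mutant against htz-1 the counts were again 0 called, against 19.6% of all genes, and 0 at an unadjusted p below 0.05, although the meg-2 groups did not overlap (31.5% of all genes did not) and the gene (-0.49 ± 0.27 SE) was called when only these 8 libraries were fitted. Between the triple mutant and the htz-1 double mutant, 1 rose and 0 fell, where 12.8% of all genes rose and 17.4% fell. The htz-1 effect differed for 0 members between the daf-2 and wild-type backgrounds, with 0 at an unadjusted p below 0.05 (13.3% of all genes were called), and for 2 between the daf-16 double mutant and daf-2 backgrounds (26.5% of all genes were called, in either direction).

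Libraries of a genotype varied together. In 15 of the 24 libraries, the 9 members other than pgl-2 all lay on 1 side of their genotype means, above in 8 and below in 7. In 12 of these 15 pgl-2 lay on the other side, and in 14 the germline marker median lay on the same side as the 9. Leaving out pgl-2 here was a choice made after its values were seen. For 8 of the 10 members the SD was largest in the triple mutant, where pgl-3 was 12.30 and 12.03 in replicates 2 and 4, against 10.71 and 11.06 in replicates 1 and 3, an SD of 0.76. The median of the oocyte markers there lay between 12.58 and 13.45. That spread was not particular to the triple mutant, as the range was 12.14 to 13.15 in wt and 12.37 to 13.11 in daf-2.

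Set against the median of the 22 germline markers in the same library, glh-1 stood at 2.70 ± 0.29 in the triple mutant, against 3.57 ± 0.16 in the daf-16 double mutant, at 2.66 ± 0.04 in the htz-1 double mutant, against 3.23 ± 0.24 in daf-2, and at 2.51 ± 0.14 in htz-1, against 3.52 ± 0.19 in wt (log2 difference within a library, SD, n = 4 each). On this scale no htz-1 allele library reached its background's lowest value. For meg-2 the same quantity was -0.82 ± 0.52 in the triple mutant, against -2.75 ± 0.31 in the daf-16 double mutant, -1.66 ± 0.19 in the htz-1 double mutant, against -2.55 ± 0.24 in daf-2, and -1.13 ± 0.19 in htz-1, against -2.08 ± 0.45 in wt. The differences of pgl-1 on this scale were -0.09, -0.15 and -0.28, none called. A fit of all genes centred in this way called glh-1 lower in all 3 backgrounds (-0.87, -0.57 and -1.01), and meg-1 (1.48, 0.72 and 0.54) and meg-2 (1.93, 0.89 and 0.95) higher in all 3, with adjusted p from 2.07e-07 to 0.0299 for these 9 values. This scaling was chosen after seeing the data. The 22 markers themselves held 1 rise and 1 fall, 0 and 9, and 2 and 5 in the 3 comparisons, with medians of -0.06, -0.51 and -0.20. Centring on a median that fell with the allele raises every difference. In the htz-1 double mutant against daf-2 it moved meg-1 from 0.42 to 0.72 and meg-2 from 0.59 to 0.89, values not called without it.

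**Figure D3:**
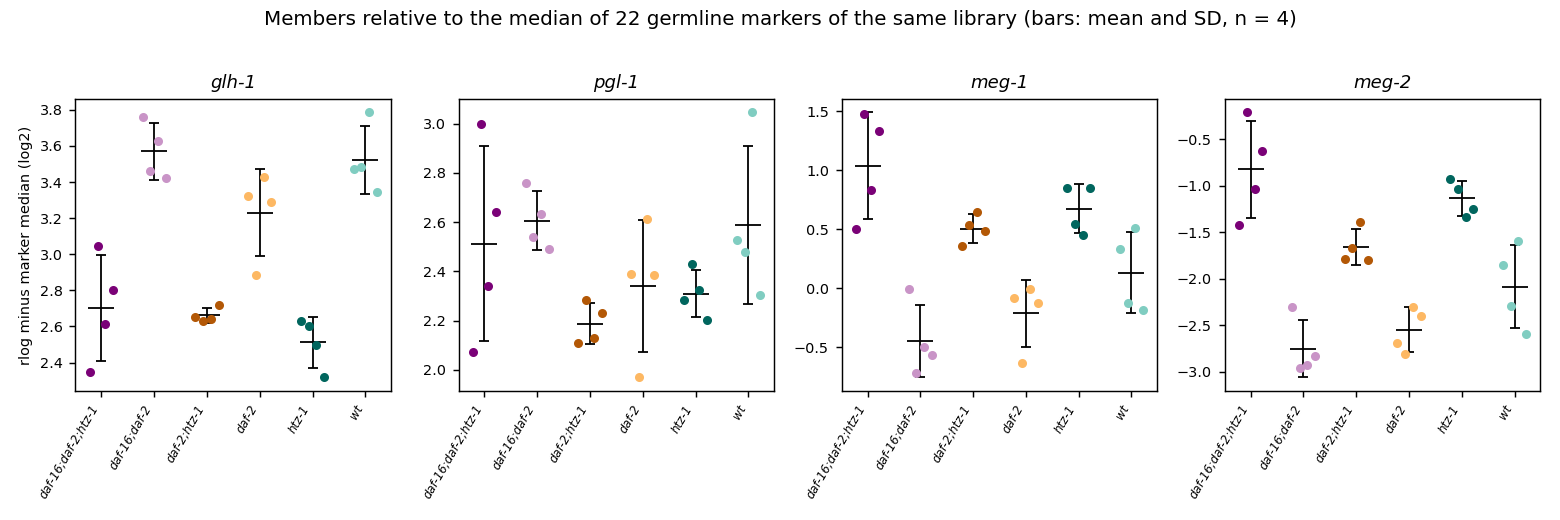
Each panel gives the rlog value of a gene minus the median of 22 mitotic and meiotic germline markers in the same library (log2 scale, vertical axis), by genotype. Points are libraries and bars are the mean ± SD of 4. For glh-1 the genotypes with the htz-1 allele (means 2.51 to 2.70) lie below those without it (3.23 to 3.57), for pgl-1 they overlap, and for meg-2 their means (-1.66 to -0.82) lie above the others (-2.75 to -2.08).

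Genes whose 6 genotype means followed a member most closely, by the root mean square (RMS) difference after centring each gene on its own mean, came from the whole table of genes tested. For glh-1 they were bca-1 (0.07), ztf-4 (0.08) and lap-2 (0.08), and no other member was nearer than glh-3 (0.31). The nearest genes to pgl-1 were rpc-2, mct-5 and imp-2 (0.02 to 0.03), and to meg-2 daf-19, mct-2 and C31E10.6 (0.07 to 0.10). Among members, glh-2 and glh-3 (0.08), glh-4 and deps-1 (0.07), pgl-1 and pgl-2 (0.09) and meg-1 and meg-2 (0.21) were each other's nearest. The RMS difference is not scaled to a gene's range, so genes that vary little score as close. The genotype means spanned 0.39 for glh-4 and 0.43 for deps-1, against 1.35 for meg-1 and 1.80 for meg-2. These distances therefore do not rank the pairs by likeness of shape.

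Both genes of P granule clearance on the lists, sepa-1 and epg-2, rose with the htz-1 allele in all 3 backgrounds. SEPA-1 and EPG-2 are the adaptors through which autophagy removes PGL-1 and PGL-3 from the somatic cells of the embryo. The transcript of sepa-1 had 7.72, 8.54, 9.31 and 8.23 in the triple mutant, against 4.17, 2.87, 2.43 and 3.93 in the daf-16 double mutant. It had 5.78, 6.12, 5.53 and 5.40 in the htz-1 double mutant, against 4.79, 3.71, 4.74 and 4.87 in daf-2, and 7.60, 7.93, 7.81 and 7.78 in htz-1, against 4.29, 4.00, 3.40 and 2.62 in wt. No group with the allele overlapped its background.

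The rises of sepa-1 were 5.10 ± 0.40 (SE, adjusted p = 1.64e-10), 1.18 ± 0.40 (adjusted p = 0.0208) and 4.20 ± 0.40 (adjusted p = 5.07e-09) in that order, and those of epg-2 were 4.16 ± 0.27 (adjusted p = 1.83e-11), 1.51 ± 0.27 (adjusted p = 0.000114) and 4.09 ± 0.27 (adjusted p = 3.25e-11). The effect was smaller in the daf-2 background than in the wild-type background for sepa-1 (-3.02 ± 0.56, adjusted p = 0.000933) and epg-2 (-2.58 ± 0.39, adjusted p = 9.56e-05), and larger in the daf-16 double mutant background than in the daf-2 background (3.92 ± 0.56, adjusted p = 3.4e-05, and 2.66 ± 0.39, adjusted p = 4.05e-05). The early embryo markers pes-10 (4.11, 1.27 and 3.78) and sdz-28 (4.21, 1.56 and 3.70) rose in the same 3 comparisons, and their part in these values was not tested. The gene epg-2 overlaps tpxl-1 on the opposite strand.

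Of the 10 genes for assembly and clearance, 4 rose and 1 fell in the triple mutant against the daf-16 double mutant, 2 rose and 3 fell in the htz-1 double mutant against daf-2, and 2 rose and 3 fell in htz-1 against wt, with medians of 0.22, -0.23 and -0.19. In htz-1 the falls were those of pptr-2 (-0.97 ± 0.17 SE), a regulatory subunit of protein phosphatase 2A, imb-2 (-0.91 ± 0.27), a transportin, and mex-6 (-0.55). Of all genes tested, 24.1%, 20.4% and 26.4% rose and 24.3%, 20.1% and 24.5% fell in the same 3 comparisons.

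Among 16 other proteins found in P granules, 2 rose and 1 fell in the triple mutant against the daf-16 double mutant, 0 rose and 7 fell in the htz-1 double mutant against daf-2, and 0 rose and 3 fell in htz-1 against wt, with medians of 0.22, -0.40 and -0.26. The shares of all genes were 24.1%, 20.4% and 26.4% for rises and 24.3%, 20.1% and 24.5% for falls. The Argonaute gene csr-1 fell in all 3 (-0.63, -0.86 and -0.88, adjusted p from 0.0011 to 0.0154). The cytoplasmic poly(A) polymerase gene gld-2 was lower in the htz-1 double mutant (-0.79) and in htz-1 (-1.17 ± 0.27 SE, adjusted p = 0.000895). The paralogs meg-3 (1.40 ± 0.26, adjusted p = 6.57e-05) and meg-4 (0.70 ± 0.24, adjusted p = 0.0183), which drive P granule condensation in the zygote, rose in the triple mutant against the daf-16 double mutant, and in the other backgrounds neither was called. In the daf-16 double mutant against daf-2, meg-4 was lower (-0.75 ± 0.24, adjusted p = 0.0243), and in the triple mutant against the htz-1 double mutant it was not called (0.06, adjusted p = 0.862). For meg-3 the effect was larger in the daf-16 double mutant than in the daf-2 background (1.18 ± 0.36, adjusted p = 0.0186), and for meg-4 the difference between them was not called (0.82, adjusted p = 0.0766).

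The 27 genes of germ granule small RNA pathways that were tested held 3 rises and 5 falls in the triple mutant against the daf-16 double mutant, 0 and 9 in the htz-1 double mutant against daf-2, and 1 and 8 in htz-1 against wt, with medians of 0.01, -0.33 and -0.11. The genes prg-1, csr-1 and wago-1 are also among the other P granule proteins above, so the falls of csr-1 count in both lists. For the small RNA list and for the oocyte and synMuv B lists below, the shares of all genes were 24.1%, 20.4% and 26.4% for rises. For falls they were 24.3%, 20.1% and 24.5%. The steepest falls among the small RNA genes were those of the Argonaute genes of spermatogenesis, alg-4 (-5.37, -2.61 and -5.25) and alg-3 (-4.89, -2.19 and -4.38), beside a median of -3.85, -1.29 and -2.81 for the sperm markers. The piRNA-associated gene tost-1 rose in htz-1 (0.91 ± 0.24 SE, adjusted p = 0.00257). Of 18 oocyte markers, 8 rose and 0 fell in the triple mutant against the daf-16 double mutant (median 0.62), 0 and 0 were called in the htz-1 double mutant against daf-2 (median -0.27), and 3 rose and 0 fell in htz-1 against wt (median 0.06). These medians stand beside MEG values of 1.35 and 1.80, 0.42 and 0.59, and 0.36 and 0.77 (meg-1 and meg-2) in the same order. Of 15 synMuv B genes, which in larval soma keep germline genes such as pgl-1 silent, 6 rose and 1 fell, 2 rose and 2 fell, and 3 rose and 1 fell. The rise of lin-52 was 1.24 ± 0.22 (SE, adjusted p = 5.01e-05) in htz-1 against wt.

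**Figure D4:**
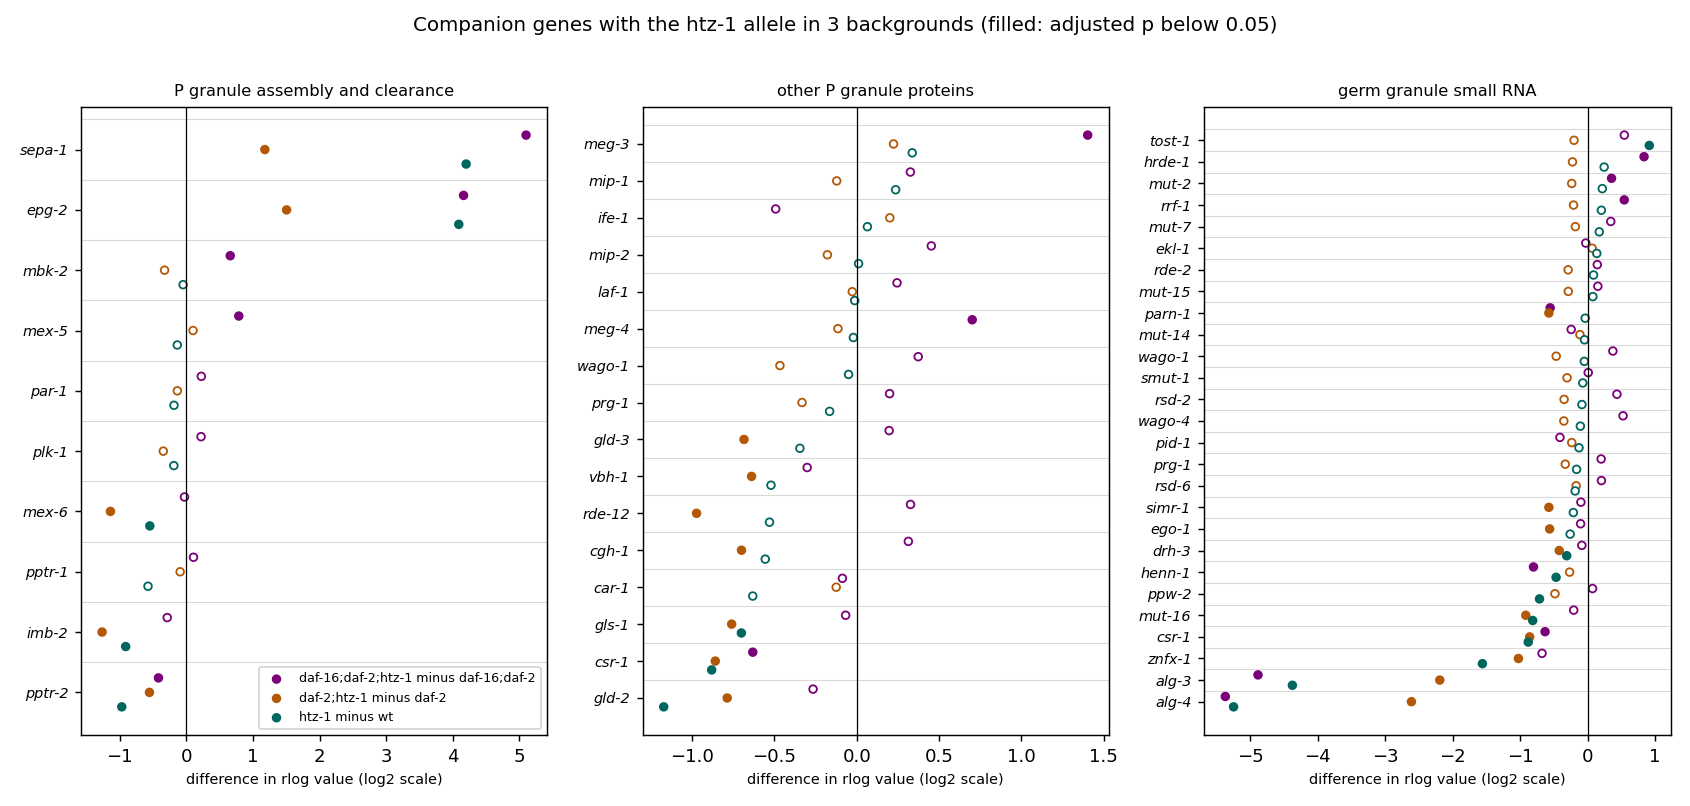
Difference in rlog value (log2 scale, horizontal axis, its range set per panel) with the htz-1 allele in 3 backgrounds, for genes of P granule assembly and clearance, other P granule proteins and germ granule small RNA pathways. Filled points had an adjusted p below 0.05. The points of sepa-1 and epg-2 reach 5.10 and 4.16, those of alg-3 and alg-4 reach -4.89 and -5.37.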

How the data were processed

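The authors deposited 1 regularized log2 (rlog) value per gene and library, as the file is named, with all 24 libraries on 1 scale. Libraries were made from total RNA with SMART-Seq2, per the labels' protocols. Per the submitters' processing notes, which give neither role nor order, bcl2fastq 2.20, kallisto 048.0 and WBcel235 were used. The rlog transformation shrinks differences of low genes. Depth is unknown, so no counting interval was computed and no count test was run.

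Genotype and replicate came from the labels. The replicate number equals the labelled batch, and each of 4 batches holds 1 library per genotype, so the numbers pair libraries. Deviations from genotype means correlated across genes at 0.0504 on average within a batch and -0.0163 between batches. Nothing says that the 4 libraries of a genotype came from separate cultures, so p-values cover only the spread among these libraries, which may be technical.

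Genes with a mean of at least 3 (14482) were fitted with limma 3.58.1 in R 4.3.3, 1 mean per genotype, an intensity trend and no batch term, 18 residual degrees of freedom. P-values were 2-sided with Benjamini-Hochberg adjustment over all genes tested and a threshold of 0.05. The code was tested on simulated data. Gene symbols and positions came from the WBcel235 annotation. Of the listed companion genes, zsp-1 and trp-3 had no match by these symbols and were not used. Lengths are the union of annotated exons, not the effective lengths of the authors' counting.

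All 10 members were named in every comparison. From each companion list, up to 2 called genes per direction with the smallest p in htz-1 against wt were taken. The genes meg-3, meg-4 and mex-6 were picked after their values were seen. The members and lists were chosen with earlier results of these data known. Alternatives were batch as a block, no filter, a minimum mean of 5, centring on the library median, quantile normalization, no intensity trend, a fit of only the groups compared, and each replicate number and each library left out. Centring on the germline marker median was added after seeing the data.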

Additional observations from a re-analysis of the deposited data

Results flagged for a closer look

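Each of the 60 sets of 4 libraries (10 members in 6 genotypes) was examined for a library standing apart from the other 3 by Dixon's ratio, which chance exceeds in about 1 in 20 sets, and 3 did. In the daf-16 double mutant, replicate 1 was the highest for glh-2 (12.33, against 11.46 to 11.60 in the other 3) and for meg-2 (8.36, against 7.65 to 7.70). In the htz-1 double mutant, replicate 1 was the lowest for pgl-3 (10.61, against 11.08 to 11.17). Without daf-16 double mutant replicate 1, the calls of the members in the comparisons that use it were kept. Without htz-1 double mutant replicate 1, glh-2 (-0.52) and glh-3 (-0.42) were no longer called against daf-2. The calls of meg-2 in the triple mutant against the htz-1 double mutant (0.72) and of the meg-1 difference between backgrounds (0.83) ended as well.

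The effect of the htz-1 allele differed between the daf-16 double mutant and daf-2 backgrounds for meg-1 (0.93, adjusted p = 0.0491) and meg-2 (1.21, adjusted p = 0.0203) by the test of the difference itself.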

How the results depend on the processing

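No called member value changed sign under any alternative. The fall of glh-1 in all 3 htz-1 comparisons, the rises of meg-1 and meg-2 in the triple mutant against the daf-16 double mutant and the fall of glh-3 in htz-1 against wt were called in every alternative run. With batch as a replicate block, 1 member in place of 2 was called for the difference of the htz-1 effect between the daf-16 double mutant and daf-2 backgrounds, and the block changed no other call of a member. The same count was 1 with no filter on low values, with no intensity trend, with centring on the germline marker median and in a fit of only these groups. A fit of only the groups compared called 5 members in place of 3 in the htz-1 double mutant against daf-2 and 1 in place of 0 in the htz-1 double mutant against htz-1. It called 750 in place of 1793 of all genes in daf-2 against wt and 4573 in place of 2836 in the htz-1 double mutant against htz-1. The cause was not tested.

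With a replicate number or a single library left out, the members called ranged from 0 to 2 for that difference between backgrounds, from 0 to 3 in the triple mutant against the htz-1 double mutant, from 1 to 5 in the htz-1 double mutant against daf-2 and from 3 to 5 in htz-1 against wt, and stayed at 3 in the triple mutant against the daf-16 double mutant. Without all libraries of a batch, further calls ended: glh-2 in htz-1 against wt without batch 3 (-0.40), glh-2 and glh-3 in the htz-1 double mutant against daf-2 without batch 1, 3 or 4 (-0.71 to -0.40 and -0.47 to -0.34), meg-2 in htz-1 against wt without batch 2 or 4 (0.60 and 0.63) and in the triple mutant against the htz-1 double mutant without batch 2 or 4 (0.61 and 0.67), and the meg-1 difference between backgrounds without batch 2, 3 or 4 (0.71 to 1.06). Other calls were gained. Without batch 2, pgl-1 (-0.68) and deps-1 (-0.66) were called in the htz-1 double mutant against daf-2. In htz-1 against wt, pgl-1 (-0.59) and pgl-3 (-0.73) were called without batch 2, and pgl-2 (-0.63) without batch 3. Over both kinds of omission, a batch or a single library, 628 to 2438 of all genes were called for the difference between the daf-2 and wild-type backgrounds (1932 with all libraries), 2344 to 4330 for that between the daf-16 double mutant and daf-2 backgrounds (3838), 2174 to 3783 in the daf-16 double mutant against daf-2 (3716), 2603 to 4887 in the triple mutant against the htz-1 double mutant (4371), 987 to 2083 in daf-2 against wt (1793) and 1452 to 2502 in the htz-1 double mutant against htz-1 (2836). Centring on the library median moved the median of all genes to 0.27 (0.18 with quantile normalization) in the triple mutant against the daf-16 double mutant, where it was 0.03. Read depth is unknown, so what it limits could not be assessed.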
